A study of [Candida] boidinii with 12 samples.

Results

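The 34 genes described here had higher levels in the lactic acid-producing yeast strain LA001-14 than in its wild type, on glucose and again on methanol, while their own change between the carbon sources was limited. They were 0.675% of the 5034 rows with a mean of at least 50 reads, out of 5712 rows in each library. The choice was made on measured values: each count was divided by its library's total and scaled to CPM (a count per library of equal size), the 3 libraries of a group were averaged, 1 CPM was added, and 4 log2 ratios were formed. These are the strain difference on glucose, the strain difference on methanol, the methanol change in wild type and the methanol change in LA001-14, each minus its median over the 5034 kept rows. A gene was taken when both strain differences were at least 0.8 and both methanol changes lay between −0.8 and 0.8. Every one of these contrasts therefore chose the genes, and the values given for them are a description.

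The organism is Candida boidinii, a yeast that can live on methanol. In such yeasts methanol is oxidised by alcohol oxidase inside peroxisomes, and the enzymes of this pathway are strongly induced by methanol and repressed by glucose. Lactate dehydrogenase turns pyruvate, the end product of glycolysis, into lactate, and yeasts of this kind make little lactate unless the enzyme is introduced.

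Messenger levels were read by RNA sequencing of total RNA in 4 groups of 3 libraries, labelled as biological replicates. The groups were LA001-14 on YPD medium with 2% (w/v) glucose, wild-type CICC#33029 on the same medium, LA001-14 on YPM medium with 2% (w/v) methanol, and wild type on that medium, all taken at 6 h. LA001-14 is CICC#33029 in which a PENO1-BtL-LDH-TTEF2 cassette and a PTDH3-KanR-TTEF2 cassette sit at random places in the chromosomes. LDH, KanR, the insertion sites and any other difference of this 1 strain cannot be told apart in the comparison. Nothing states whether the replicates came from separate cultures, so the spread between them may be partly technical. In such bulk samples fewer cells that use a gene and less RNA per cell cannot be told apart.

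Library totals ran from 8045977 to 14107813 counts. The LDH row, which checks the labels, averaged 7015 ± 385 CPM in LA001-14 on glucose and 1846 ± 135 CPM in LA001-14 on methanol (SD, n = 3 each), with no read in 5 wild-type libraries and 1 read in the remaining one. These CPM values and those of single genes from here on are scaled by TMM (trimmed mean of M values), so that the libraries are comparable. Without that scaling the median of all kept rows was 0.22 higher on the log2 scale in LA001-14 on glucose and 0.27 higher on methanol. Replicate 1 of wild type on glucose differed from both its sister libraries by more than they did from each other, with a chi-square per degree of freedom over genes of 25.03 and 32.3 against 5.59 between those, and the fitted glucose differences of the members named by rule are given further on without it as well.

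The files name genes only by CB identifiers and pair them with no gene name, function or sequence, so roles cannot be given for the members and no pathway could be counted. The identifiers named below come from a fixed rule on the size and level of the differences, with a few others that were picked after their values were seen and are marked as such. No source used here gives strand or the way reads were assigned, so reads of overlapping, antisense or near-identical genes could not be separated.

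By the median, the members' strain difference was of nearly the same size on methanol as on glucose, which the limits of the rule favour. Single members differed between the carbon sources, as given further on. In the edgeR fit to all genes the strain difference of the 34 members had a median of 1.13 on glucose and of 1.11 on methanol on the log2 scale, with ranges of 0.82 to 2.50 and 0.80 to 2.61. Over all 5466 genes tested the medians were 0.012 and 0.0048. All 34 passed the low-count filter of that fit, and all 34 were called higher at a Benjamini-Hochberg adjusted p under 0.05 on glucose, where 30.9% of all genes were called higher, and on methanol, where 32.8% were. Every LA001-14 library lay above every wild-type library for all 34 members on both carbon sources. That held for 32.2% of all genes on glucose, 35.5% on methanol and 15.1% on both. Nothing is read from these counts, because the same contrasts chose the members.

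**Figure D1:**
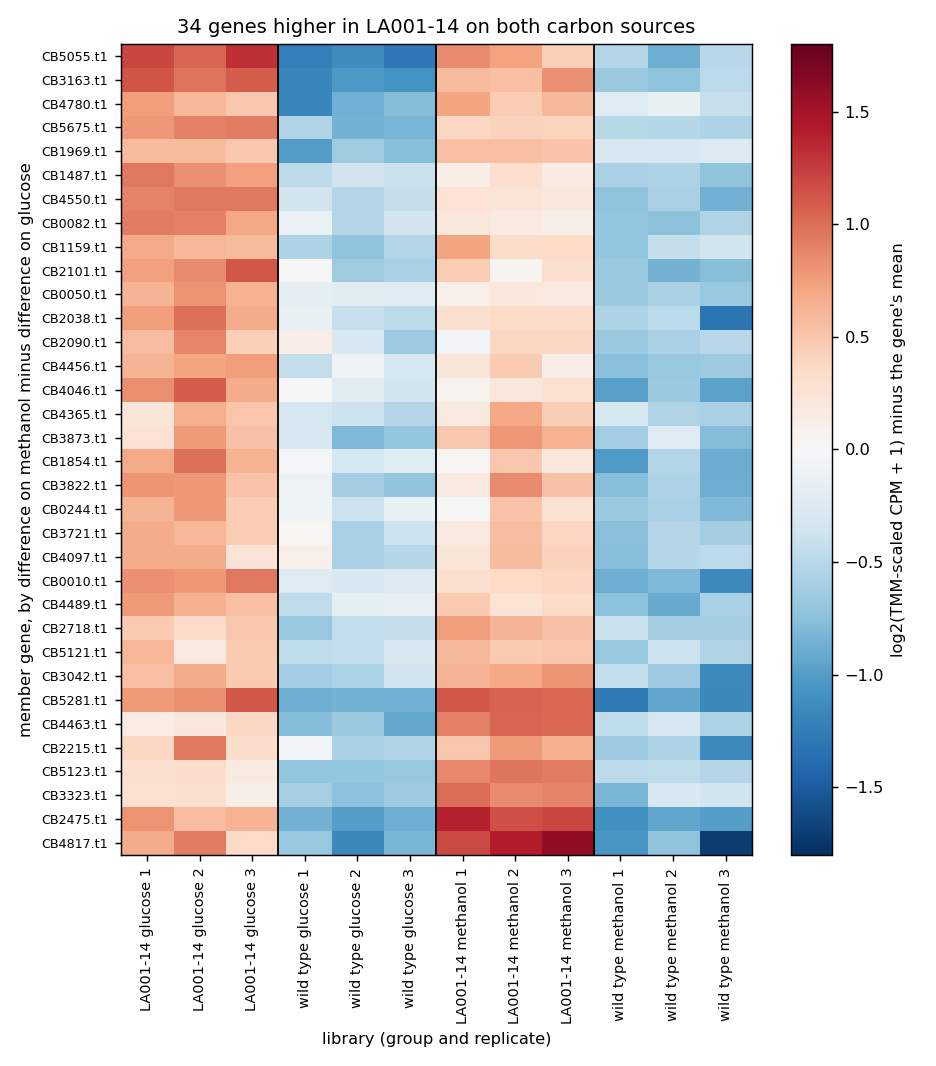
Level of the 34 members in each of the 12 libraries, as log2(TMM-scaled CPM + 1) minus the gene's mean over all libraries; rows are ordered by the difference on methanol minus that on glucose and columns are grouped by strain and carbon source. LA001-14 libraries are above each gene's mean (red) and wild-type libraries below it (blue), apart from a few cells near 0.

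The steps of the rule show how the set of 34 arose. A strain difference of at least 0.8 was reached by 549 kept rows on glucose and by 626 on methanol, and 150 rows reached it on both. Of these, 116 failed the limits on the methanol changes, 95 of them in both strains, and in 93 of the 116 both methanol changes lay below −0.8. Most of the 150 were therefore also lower on methanol in both strains, and the 34 members are the part with the smaller methanol changes. The same rule turned round gave 64 genes lower in LA001-14 on both carbon sources, out of 171 that passed both strain limits.

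**Figure D2:**
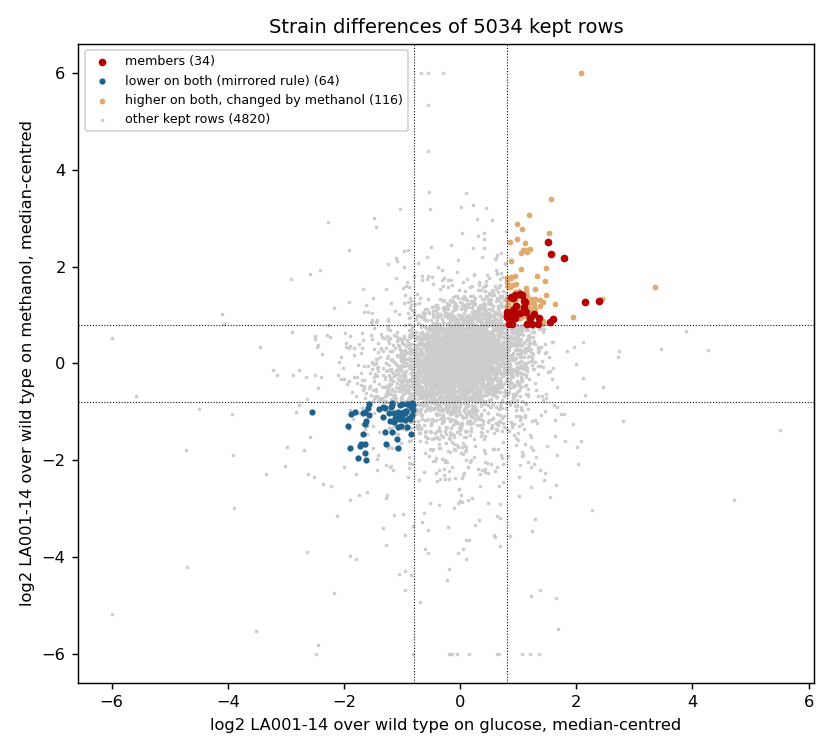
Strain difference on glucose (x axis) against that on methanol (y axis) for the 5034 kept rows, both log2 of LA001-14 over wild type with the median subtracted; dotted lines mark 0.8 and −0.8, and 18 rows beyond 6 on either axis are drawn at the edge. The 34 members (red) share the upper right corner with the 116 genes that failed the methanol limits (orange), and the 64 genes of the reversed rule (blue) lie at the lower left.

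Most members lay close to the threshold. The smaller of the 2 strain differences was between 0.8 and 1.0 in 21 members, between 1.0 and 1.5 in 10, and at least 1.5 in 3. Just inside the limit were CB0244.t1, with 0.81 on glucose and 0.97 on methanol, and CB2090.t1, with 0.84 and 0.81. Just outside it were CB3635.t1, with 0.98 and 0.80 (under 0.8 before rounding), and CB2613.t1, with 0.78 and 0.94. Under 0.85 there were 9 members, and 5 further genes lay between 0.75 and 0.8.

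The 3 members with both differences at or above 1.5 were CB5281.t1, CB2475.t1 and CB4817.t1. CB5281.t1, with a coding length of 1152 bases, had 63.8, 67.3 and 82.2 CPM in LA001-14 on glucose, against 19.9, 20.1 and 20.1 CPM in wild type on glucose. On methanol it had 82.1, 79.1 and 77.6 CPM in LA001-14 against 14.9, 18.9 and 16.1 CPM in wild type. The lowest LA001-14 library lay well above the highest wild-type one on each carbon source. Its fitted strain difference was 1.83 (SE 0.111) on glucose and 2.25 (SE 0.101) on methanol on the log2 scale.

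CB2475.t1 was among the most abundant members per length. It had 286, 238 and 251 CPM in LA001-14 on glucose, against 89.5, 81.2 and 87.3 CPM in wild type on glucose. It had 424, 365 and 374 CPM in LA001-14 on methanol, against 75.5, 84.2 and 81.4 CPM in wild type on methanol. The strains did not overlap, and the methanol libraries were the highest of LA001-14 while wild type kept to a narrow range on both carbon sources. The fitted strain difference was 1.58 (SE 0.0891) on glucose and 2.27 (SE 0.0813) on methanol.

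CB4817.t1 held the largest difference on methanol and varied more between replicates. It had 37.1, 44.5 and 29.3 CPM in LA001-14 on glucose against 13.98, 9.76 and 12.6 CPM in wild type. On methanol it had 53.8, 62.8 and 71.1 CPM in LA001-14 against 10.6, 13.6 and 6.35 CPM in wild type. Again no wild-type library reached the lowest LA001-14 one. The fitted strain differences were 1.61 (SE 0.230) and 2.61 (SE 0.336) on the log2 scale.

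The largest differences on glucose belonged to CB5055.t1 and CB3163.t1, and in both the gap was smaller on methanol. CB5055.t1 had 66.7, 59.8 and 72.3 CPM in LA001-14 on glucose, against 11.6, 12.5 and 11.1 CPM in wild type. On methanol it had 52.2, 47.6 and 38.8 CPM in LA001-14 against 19.5, 15.02 and 19.9 CPM in wild type. LA001-14 was lower on methanol than on glucose in this gene and wild type higher, without overlap between the carbon sources in either strain. The fitted strain difference was 2.50 (SE 0.0937) on glucose and 1.36 (SE 0.180) on methanol.

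CB3163.t1, at 921 bases the shortest member, followed the same pattern. It had 101, 90.6 and 98.1 CPM in LA001-14 on glucose and 19.7, 21.8 and 21.1 CPM in wild type on glucose. It had 67.8, 66.7 and 80.9 CPM in LA001-14 on methanol and 28.3, 27.2 and 32.6 CPM in wild type on methanol. All LA001-14 libraries were above all wild-type libraries. The fitted strain difference was 2.21 (SE 0.0641) on glucose and 1.29 (SE 0.118) on methanol.

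The other member with the highest level per length was CB5123.t1, at 233 FPKM (the deposited unit, which divides by coding length and library size) over the LA001-14 libraries and 84.3 FPKM over the wild-type ones. Its counts gave 239, 244 and 222 CPM in LA001-14 on glucose against 121, 120.2 and 122 CPM in wild type. On methanol there were 359, 383 and 374 CPM in LA001-14 against 142, 142 and 136 CPM in wild type. Replicates lay close together in every group, and the fitted strain difference was 0.96 (SE 0.0421) on glucose and 1.41 (SE 0.0351) on methanol.

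At the low end, CB2215.t1 and CB4456.t1 had the fewest wild-type reads. CB2215.t1 had 5.90, 9.30 and 5.63 CPM in LA001-14 on glucose against 4.13, 2.56 and 2.67 CPM in wild type. On methanol it had 6.48, 8.11 and 7.34 CPM in LA001-14 against 2.40, 2.62 and 1.41 CPM in wild type, the last 3 from 17, 29 and 14 reads. The groups did not overlap, but the lowest LA001-14 and highest wild-type library on glucose were near each other, and the SE of the fitted differences of 1.14 and 1.76 was 0.307 and 0.268. CB4456.t1 had 10.6, 11.5 and 11.8 CPM in LA001-14 on glucose against 4.66, 6.27 and 5.12 CPM in wild type, and 7.86, 9.49 and 7.22 CPM in LA001-14 on methanol against 3.53, 3.71 and 3.83 CPM in wild type. The strains did not overlap on either carbon source. Within each strain every methanol library lay below every glucose library, with fitted methanol changes of −0.52 in wild type and −0.46 in LA001-14. Neither change was called, at an adjusted p of 0.062 and 0.057 in the edgeR test. The strain difference of CB4456.t1 was 1.08 (SE 0.130) on glucose and 1.14 (SE 0.118) on methanol.

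Genes at the threshold differed by less in size and still had no overlapping libraries. CB0244.t1, at 6447 bases, had 223, 252 and 201 CPM in LA001-14 on glucose against 138, 112 and 133 CPM in wild type, and 146, 208 and 177 CPM in LA001-14 on methanol against 91.8, 97.2 and 83.3 CPM in wild type. CB2090.t1 had 18.1, 22.99 and 16.4 CPM in LA001-14 on glucose against 13.2, 9.76 and 7.25 CPM in wild type, and 11.5, 15.8 and 15.8 CPM in LA001-14 on methanol against 7.19, 7.69 and 8.17 CPM in wild type. In CB2090.t1 wild type on glucose was spread widely, with replicate 1 nearest to LA001-14.

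Without replicate 1 of wild type on glucose, the fitted difference on glucose was 1.24 in CB2090.t1 (0.92 with it), 1.47 in CB2215.t1 (1.14 with it), 1.78 in CB4817.t1 (1.61 with it) and 0.93 in CB0244.t1 (0.82 with it). In the other 6 members named by rule it was 2.54 in CB5055.t1, 2.22 in CB3163.t1, 1.88 in CB5281.t1, 1.67 in CB2475.t1, 1.04 in CB4456.t1 and 1.01 in CB5123.t1, each within 0.1 of the value with it. All 10 were still called higher in LA001-14, as the choice of the members favours.

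**Figure D3:**
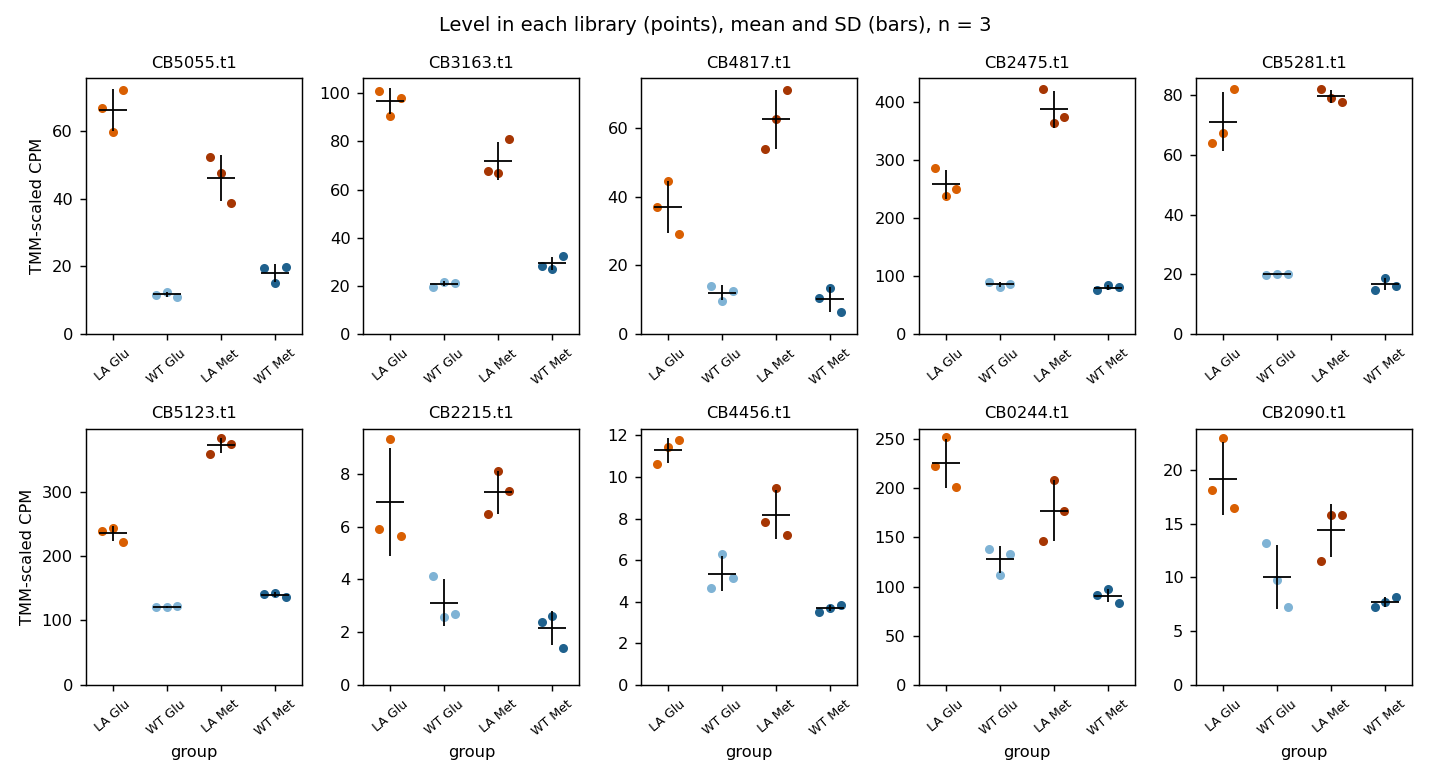
TMM-scaled CPM of 10 named members in each library (points, with mean and SD bars, n = 3), with LA001-14 (LA) left of wild type (WT) on glucose (Glu) and on methanol (Met). In every panel the LA001-14 points lie above the wild-type points of the same carbon source, and the gap widens on methanol in CB4817.t1 and CB2475.t1 and narrows in CB5055.t1 and CB3163.t1.

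Among the genes that failed only the methanol limits, CB2564.t1 and CB3322.t1 had the largest strain differences, taking the smaller of the 2 carbon sources. CB2564.t1 averaged 836 ± 19.7 CPM in LA001-14 and 199 ± 42.5 CPM in wild type on glucose, and 1368 ± 95.4 CPM in LA001-14 and 10.7 ± 1.90 CPM in wild type on methanol (SD, n = 3 each). Its methanol change of −4.08 in wild type kept it out of the set. CB3322.t1 averaged 209 ± 15.7 CPM in LA001-14 and 19.4 ± 2.90 CPM in wild type on glucose, and 285 ± 13.8 CPM in LA001-14 and 94.4 ± 5.31 CPM in wild type on methanol. It failed through a methanol change of 2.21 in wild type. Its next identifier, CB3323.t1, is a member.

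Within the limits the rule sets, the median methanol change of the members lay below 0 in both strains. By the rule's measure it was −0.25 in LA001-14 and −0.25 in wild type. Both changes were below 0 in 18 of 34 members (52.9%), against 31.8% of all kept rows and 24.9% of the 2822 kept rows within the same limits. In LA001-14 5 members were called higher and 14 lower on methanol, where 34.7% of all genes were called higher and 29.7% lower. In wild type 7 members were called higher and 10 lower, where 35.0% of all genes were called higher and 35.3% lower. The wild-type split was 4 higher and 19 lower with upper quartile scaling, where 29.3% of all genes were called higher and 41.4% lower, and 4 higher and 16 lower with library totals, where 28.8% were called higher and 40.2% lower. These contrasts were used to choose the members, so the counts are descriptive.

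Lower on methanol in both strains were 9 members, against 17.5% of all genes, and CB4046.t1, the longest member at 6765 bases and picked here after its values were seen, is an example. It had 46.03, 50.8 and 53.1 CPM on methanol and 79.2, 94.7 and 70.6 CPM on glucose in LA001-14, and 21.9, 27.4 and 22.1 CPM on methanol and 43.6, 38.6 and 34.6 CPM on glucose in wild type. Each strain was lower on methanol without overlap, by nearly the same amount. Higher on methanol in both strains were 2 members, against 18.7% of all genes: CB5123.t1, described above, and CB4463.t1, with fitted methanol changes of 0.77 (SE 0.0843) in LA001-14 and 0.36 (SE 0.112) in wild type.

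A further 3 members, CB3163.t1, CB5055.t1 and CB5675.t1, were called lower on methanol in LA001-14 and higher in wild type, a combination found in 5.29% of all genes, and no member was called the other way round, as 7.21% of all genes were. CB5675.t1, which like all members of these small classes is named after its values were seen, had 176, 182 and 180.4 CPM on methanol and 235, 255 and 259 CPM on glucose in LA001-14. In wild type it had 95.8, 95.4 and 92.2 CPM on methanol and 92.99, 74.8 and 75.6 CPM on glucose. The carbon sources overlapped there, since replicate 1 on glucose lay above the lowest methanol library. In LA001-14 alone 3 members were called higher and 2 lower on methanol, against 8.82% and 6.92% of all genes. In wild type alone 2 were called higher and 1 lower, against 11.0% and 10.6%. That a change was called in 1 strain and not in the other does not show that the strains differ. Neither strain's change was called in 12 members, against 13.9% of all genes, and 11 of these were not called in the interaction described next either, against 13.2%. The rule's limits on the methanol changes favour such genes, so nothing is read from these counts.

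Whether the strain difference itself depended on the carbon source was described with the interaction, the strain difference on methanol minus that on glucose. The edgeR fit called 6 members higher and 7 lower in it, against 30.8% and 27.9% of all genes, and made no call for the other 21. The median over the members was 0.08 on the log2 scale, against 0.019 over all genes. The split was 4 higher and 8 lower with RLE scaling and with DESeq2, where 29.3% of all genes were called higher and 29.7% lower in the first and 28.5% and 28.8% in the second. It was 7 higher and 6 lower with the upper quartile, against 33.8% and 24.8% of all genes, and 6 higher and 5 lower with library totals, against 32.1% and 24.2%. Since the interaction combines contrasts that the rule used, these counts too are a description.

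A larger gap on methanol was found in CB4817.t1 (1.01, SE 0.407), CB2475.t1 (0.68, SE 0.121), CB5123.t1 (0.45, SE 0.0548) and CB5281.t1 (0.42, SE 0.150), among others. In 5 of the 6 members called higher, LA001-14 was called higher on methanol, a combination found in 17.0% of all genes. CB3323.t1, picked after its values were seen, is 1 of these. It had 45.00, 40.1 and 41.6 CPM on methanol and 26.7, 26.9 and 23.5 CPM on glucose in LA001-14, and 11.8, 17.8 and 17.04 CPM on methanol and 14.1, 12.7 and 13.5 CPM on glucose in wild type. LA001-14 separated by carbon source and wild type overlapped. In the edgeR test of the interaction the adjusted p was 0.047 in CB3323.t1 and 0.039 in CB5281.t1, just under the limit of 0.05. With 1 library left out, 4 to 6 members were called higher in it, against 28.9% to 30.1% of all genes.

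A smaller gap on methanol was found in CB5055.t1 (−1.13, SE 0.203) and CB3163.t1 (−0.92, SE 0.134), and in 5 others. Of the 7 members called lower in the interaction, 5 were called lower on methanol in LA001-14, as 13.2% of all genes were, and 5 were called higher on methanol in wild type, as 19.7% of all genes were, with CB3163.t1, CB5055.t1 and CB5675.t1 in both groups. In CB1969.t1 and CB4780.t1, picked after their values were seen, the LA001-14 values overlapped between the carbon sources. CB1969.t1 averaged 405 ± 2.93 CPM on methanol and 409 ± 15.2 CPM on glucose in LA001-14, and 232 ± 4.56 CPM on methanol and 161 ± 20.6 CPM on glucose in wild type (SD, n = 3 each). CB4780.t1 averaged 111 ± 9.86 CPM on methanol and 113 ± 10.7 CPM on glucose in LA001-14, and 61.1 ± 6.18 CPM on methanol and 37.9 ± 5.37 CPM on glucose in wild type.

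**Figure D4:**
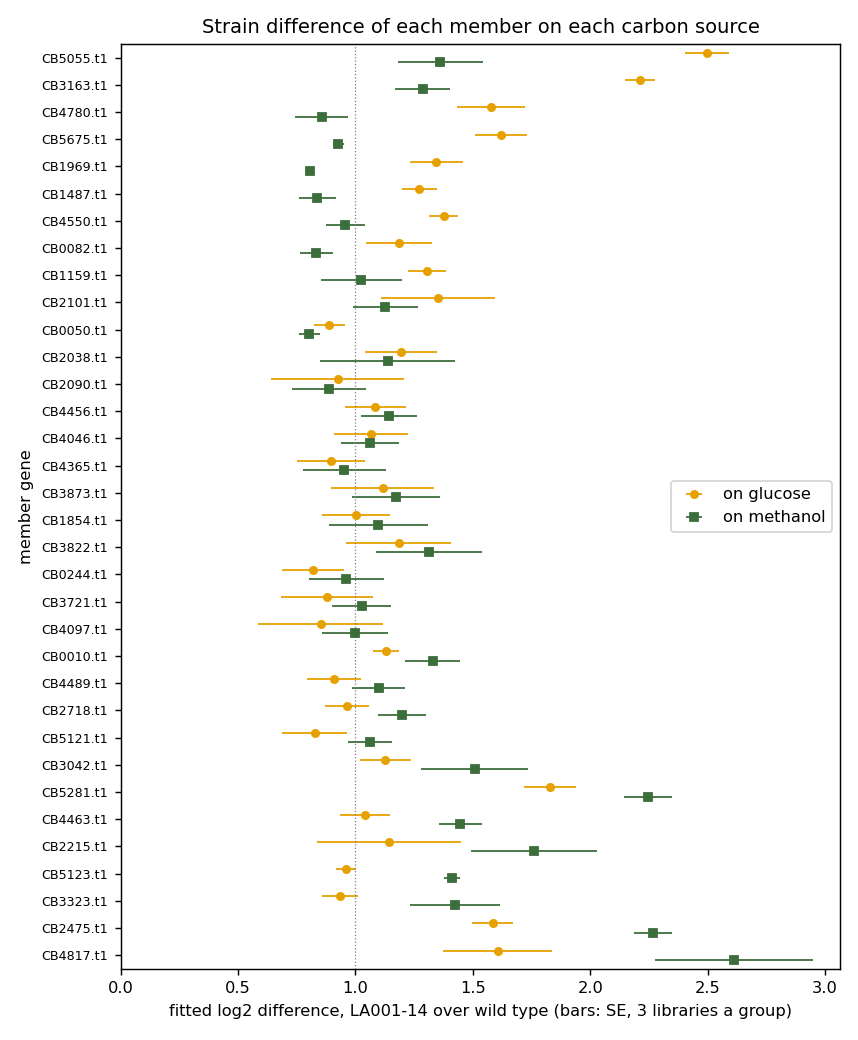
Fitted log2 difference of LA001-14 over wild type for each member on glucose (circles) and on methanol (squares), with SE bars from 3 libraries a group; genes are ordered by the difference on methanol minus that on glucose. In the genes at the top the strains were further apart on glucose, in those at the bottom on methanol, and in the middle rows the bars overlap.

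Per length, the members were genes of middling level in LA001-14 and of low level in wild type. Their mean FPKM had a median of 34.02 in LA001-14, ranging from 2.90 to 233, against 41.6 for all kept rows. In wild type the median was 13.1 FPKM, ranging from 0.915 to 84.3, against 35.8 for all kept rows. More than the kept rows' median was reached by 14 of the 34 in LA001-14 and by 9 in wild type. The gap between the strains in these levels follows from the choice of the members.

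Together the members took a small part of all reads. Their counts summed to 0.426 ± 0.0132% of the library in LA001-14 against 0.164 ± 0.0138% in wild type on glucose, and to 0.390 ± 0.0168% in LA001-14 and 0.141 ± 0.0031% in wild type on methanol (SD, n = 3 each). Between replicates of a group, the median SD of a member on the log2 scale was 0.161, against 0.138 for all kept rows, and the members' median count of 494.5 per library was below the 617.5 of the kept rows.

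By the median the members' coding sequences were longer than those of all kept rows, and 22 of the 34 were longer than the median kept row. Their median coding length was 2149.5 bases, against 1467 bases for all kept rows and 898.5 bases for the 64 genes of the reversed rule. No member was under 900 bases, where 24.6% of kept rows lay, and 10 of the 34 (29.4%) had at least 3000 bases, as did 15.1% of kept rows and 1 of the 64 reversed genes. The 116 genes that passed both strain limits and failed a methanol limit were long too, with a median of 1957.5 bases and 22 of them (18.97%) at 3000 bases or more, so the lengths are not particular to the 34. In 5 classes of the kept rows of nearly equal number, from short to long, there were 0, 8, 4, 10 and 12 members, 10, 27, 24, 48 and 41 of all 150 genes that passed both strain limits, and 24, 21, 12, 6 and 1 reversed genes.

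**Figure D5:**
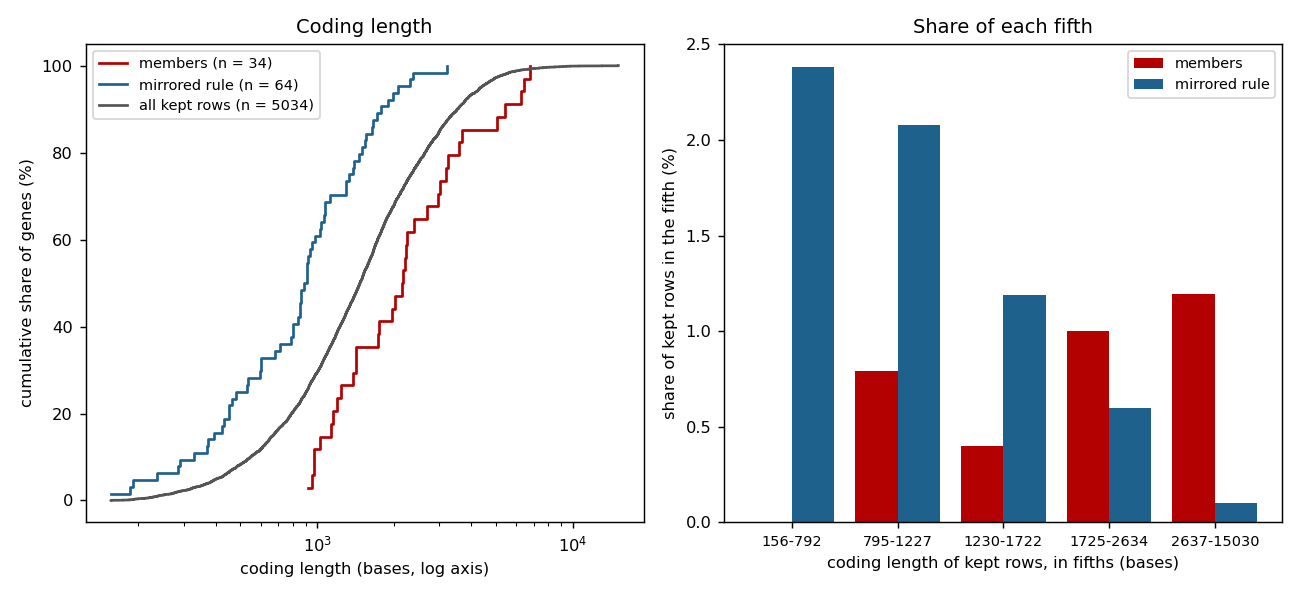
Left, cumulative share of genes (%) by coding length (bases, log axis) for the members, the genes of the reversed rule and all kept rows; right, the share of kept rows (%) in each of 5 length classes that are members or reversed genes. The member curve lies to the right of all kept rows and the reversed genes to the left of them.

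Length went with the strain difference across the whole data set as well. Over the 5034 kept rows Spearman's rho between coding length and the strain difference was 0.20 on glucose and 0.22 on methanol; the rows share their libraries and are not independent, and the value is a description. Over these classes the median strain difference was −0.28, −0.0034, 0.04, 0.11 and 0.11 on glucose and −0.21, −0.10, −0.04, 0.05 and 0.25 on methanol. The longest class of rows took 16.4 ± 0.871% of the counts in LA001-14 against 13.99 ± 0.990% in wild type on glucose, and 16.8 ± 1.00% in LA001-14 and 13.2 ± 0.0144% in wild type on methanol (SD, n = 3 each). Within the members rho over the 34 was −0.32 on glucose and −0.13 on methanol. The rule cut both strain differences at 0.8, so these values cannot be set against those over all kept rows.

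The 10 members of at least 3000 bases were set beside the share of reads in long rows. Outside wild type on methanol, the library of a group with the largest share was the highest in most of them. The share of all long rows that were highest in the same library is not given here, so the counts are a description. In wild type on glucose replicate 1 had the largest share of counts in the longest class, at 15.1% against 13.4% in each of the other 2, and it was the highest library of its group in 9 of the 10 long members but in 11 of the other 24. Replicate 2 of LA001-14 on glucose, with 17.4% against 16.1% and 15.8%, was the highest of its group in 6 of the 10 long members and 7 of the other 24. Replicate 2 of LA001-14 on methanol, with 17.5% against 15.7% and 17.2%, was the highest in 8 of the 10 and 9 of the 24, while replicate 3, with nearly as large a share, was the highest in 2 of the 10. In wild type on methanol the shares hardly differed, between 13.22% and 13.25%, the latter in replicate 2. That replicate was the highest in 8 of the 10 long members and in 12 of the 24.

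Long and shorter members were set apart by little in size. The fitted strain difference of the 10 long members had a median of 0.95 on glucose and 1.04 on methanol, and that of the other 24 a median of 1.19 on glucose and 1.14 on methanol. None of the 7 members called with a smaller gap on methanol, as 27.9% of all genes were, was among the 10 long ones. The share of all long genes called so was not computed. In the longest class of kept rows the median strain difference was 0.11 on glucose and 0.25 on methanol, so this need not be particular to the members. When a smooth curve of each log2 ratio on coding length was subtracted before the rule was applied, an alternative added after the data were seen, 25 genes met the rule, 20 of them members, and their median coding length was 1377 bases. The 34 members then had a median strain difference of 0.95 on glucose and 1.02 on methanol. The part of coding length in the choice of members was not tested further.

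By identifier number the members were scattered. No 2 members had consecutive numbers, and only CB5121.t1 and CB5123.t1 lay within 5 of each other. Of 58 blocks of 100 identifiers 26 held a member and none held more than 3. Nothing states that identifier numbers follow the chromosomes, so this describes the numbering alone. CB5121.t1, named here after its values were seen, had 107, 80.3 and 98.1 CPM in LA001-14 on glucose against 51.2, 51.7 and 58.2 CPM in wild type, and 107, 98.6 and 99.7 CPM in LA001-14 on methanol against 43.6, 53.6 and 48.4 CPM in wild type. Its strain difference was thus near that of CB5123.t1 on glucose, at 0.83 (SE 0.138), and below it on methanol, at 1.06 (SE 0.0934).

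A library that took no part in the choice gives a view of the strain difference in which 1 side is free of the rule. With each of the 12 libraries left out in turn, the rule chose between 29 and 38 genes from the other 11. For every gene so chosen the left-out library lay beyond all 3 libraries of the other strain on the same carbon source, toward higher levels in LA001-14, which held for 41.2% to 43.7% of all kept rows. A difference of at least 0.8 was reached there by 68.4% to 96.6% of the chosen genes and by 10.1% to 13.6% of all kept rows. The comparison group of the left-out library was still used in the choice, so the shares are a description. Of the 34 members, 18 were chosen in all 12 cases, and 10 other genes came in at least once. Leaving out replicate 1 of wild type on glucose gave the largest set, 38 genes with 33 of the members, and moved the members' median fitted difference on glucose to 1.26.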

How the data were processed

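The members, lists and tests were chosen with earlier results of these data known. For each of 12 libraries the authors deposited 1 table with read counts per gene, FPKM and coding length, per the file headers; the counts and FPKM were used as deposited. Bowtie2 2.5.4 is named in the submitters' processing notes, while no source used here gives the counting program, genome build, annotation or strand. FPKM divides by length and library size without a correction for composition, and served only to compare levels between genes.

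Groups were taken from the sample titles. Counts were fitted in R 4.3.3 with edgeR 4.0.16 on all 12 libraries, 1 mean per group, with TMM scaling, the filterByExpr filter (5466 genes left), robust quasi-likelihood tests and Benjamini-Hochberg adjustment over all of them, called at 0.05. The common biological coefficient of variation was 0.0938. Standard errors are those of differences between group means of log2 CPM with a prior of 2 reads and cover the spread of 3 libraries a group. The fit was also run on simulated data. No outcome of that run is given here, so nothing about the reliability of the calls is read from it. The rule of selection, levels, lengths and identifiers were handled in Python 3.11.15 with pandas 2.3.3 and statsmodels 0.14.6.

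Genes were named by rule: up to 2 for the largest strain differences on each and on both carbon sources, the highest FPKM in LA001-14, the lowest wild-type CPM, the extremes of the difference between carbon sources, and the genes nearest the threshold on either side, with 2 that failed only the methanol limits. The lists of methanol, glycolytic, lactate, ribosomal and stress genes could not be looked up, because the identifiers come with no names. Alternatives were other scalings, no filter, DESeq2 1.42.0, the replicate number as a block, other thresholds of the rule and each library left out.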

Additional observations from a re-analysis of the deposited data

Results flagged for a closer look

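The strain difference differed between the carbon sources in 13 of the 34 members by the test of the interaction in edgeR. In 6 members it was larger on methanol and in 7 it was smaller, against 30.8% and 27.9% of all genes; the rule used the contrasts that make up this difference. Of the genes named by rule, the interaction was −1.13 on the log2 scale in CB5055.t1 and −0.92 in CB3163.t1, where the gap was smaller on methanol. It was 1.01 in CB4817.t1, 0.68 in CB2475.t1, 0.45 in CB5123.t1 and 0.42 in CB5281.t1, where the gap was larger on methanol. The adjusted p of CB5281.t1 in this edgeR test was 0.039, near the limit.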

How the results depend on the processing

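All 34 members were called higher in LA001-14 on both carbon sources under each of the scalings, filters, tools and left-out libraries tried, and the 10 members named by rule kept direction and call in 320 of 320 alternatives. The choice of members on the same counts favours this, so it is no sign of stability. The number of members depended on the rule's limits: 75 with strain differences of at least 0.6, 13 with at least 1, 15 with methanol changes within 0.5, 57 within 1.2, and 79 (32 shared) with library totals and no median subtracted. It ran from 29 to 38 with 1 library left out. The members' median fitted strain difference was 1.35 on glucose and 1.39 on methanol with library totals, which also turned the calls over all genes from near balance to 2335 higher and 1168 lower on glucose and 2578 higher and 1127 lower on methanol. With 1 library left out it ran from 1.06 to 1.26 on glucose and from 1.08 to 1.15 on methanol.

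With 1 library left out, 14 to 18 members (41.2% to 52.9%) were called changed by methanol in wild type, against 66.5% to 71.1% of all genes. In LA001-14 17 to 22 (64.7% at most) were, against 59.1% to 66.0% of all genes, and in the interaction 10 to 13 (29.4% to 38.2%), against 54.95% to 58.3%. Without replicate 1 of wild type on glucose the interaction had 4 members higher and 8 lower, against 29.2% and 29.1% of all genes. Deviations from the group means correlated between −0.25 and 0.12 for equal replicate numbers and between −0.13 and 0.18 for others. At 3 libraries a group these values cannot decide whether equal numbers pair the libraries. With the replicate number as a block, the counts of calls stayed at 34, 34, 17 and 19, and the interaction had 12 in place of 13, while the median strain differences were 1.12 and 1.11. Of all genes, 30.1% were then called higher in LA001-14 on glucose and 32.2% on methanol. Changed by methanol were 69.6% in wild type and 63.2% in LA001-14, and 57.1% were called in the interaction. Members with few reads, such as CB2215.t1, limit how closely their size is known.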
